A study of Homo sapiens with 9 samples.

Results

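Contacts between different captured regions were described in capture Hi-C libraries of IMR90 fibroblasts, a human lung fibroblast line, in growing and RAS-induced senescent (RIS) cells. The captured regions were taken from the 10 kb matrices as runs of bins with a value in all 4 capture libraries, with gaps of up to 5 bins joined and at least 20 bins. This gave 61 regions on 22 chromosomes, 280 to 3520 kb long with a median of 910 kb, and 1830 pairs of different regions out of 1891 pairs when each region was also paired with itself. Of the 1830 pairs, 86 lay on the same chromosome and 1744 on different chromosomes. All cells were infected with a construct for the RAS oncoprotein HRAS G12V fused to the oestrogen receptor (ER:HRAS). RIS cells had received 100 nM 4-hydroxytamoxifen (4OHT), which switches the fusion on, for 6 days, and growing cells are labelled as without it. There were 2 growing and 2 RIS capture libraries, and 3 growing and 2 RIS Hi-C libraries over the same regions in 40 kb bins. Growing Hi-C replicate 3 also carried an MSCV vector by its label. The study's methods call the replicates biological, the labels do not say which came from separate cultures, and the tests measure the spread between these libraries. The capture libraries are described as matching the Hi-C libraries, so the readouts may share material.

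Each chromosome keeps largely to its own territory in the nucleus, so that contacts between chromosomes are rare and mostly reflect which kind of chromatin lies beside which. Active, gene-rich chromatin (compartment A) meets other active chromatin, and inactive, gene-poor chromatin (compartment B) meets other inactive chromatin, often at the nuclear periphery. In Hi-C, DNA ends cut by HindIII and lying close together are ligated and sequenced, and in capture Hi-C the pairs with an end in a chosen region are enriched by RNA baits before sequencing. Senescence is a lasting stop of cell division, which an active RAS oncogene can bring about in fibroblasts, and in such cells heterochromatin is known to gather into large foci.

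A contact is thus read from ligated HindIII ends. The site nearest the centre of each of 3 regions that take part in the largest rises below, as partners of the region of KCNT2, a potassium channel gene, is shown with 60 bases on either side, from the plus strand of GRCh37 (the hg19 build of the files), with the AAGCTT cut site in capitals. They lie at chr4:125934458-125934583 for the region of FAT4, a cadherin gene, at chr4:121994931-121995056 for that of CCNA2, the gene of cyclin A2, and at chr15:71357898-71358023 for that of THSD4, a gene of the extracellular matrix.
FAT4: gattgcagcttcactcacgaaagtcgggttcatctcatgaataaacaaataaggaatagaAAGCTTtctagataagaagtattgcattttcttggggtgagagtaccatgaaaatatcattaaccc
CCNA2: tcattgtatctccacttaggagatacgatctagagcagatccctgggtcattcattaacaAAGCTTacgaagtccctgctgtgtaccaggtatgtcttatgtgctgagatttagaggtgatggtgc
THSD4: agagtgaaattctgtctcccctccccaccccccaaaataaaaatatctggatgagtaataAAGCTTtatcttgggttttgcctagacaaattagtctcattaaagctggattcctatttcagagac

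The number of such sites varied between regions, from 11.6 per 100 kb in that of MROH1 to 36.1 in that of FAT4, around a median of 29.0. Whole contacts recovered from the balanced values numbered 265448 to 582487 between chromosomes in each capture library, a median of 85.5 to 191 per pair of regions, and 6196 to 7940 in each Hi-C library, a median of 2 or 3 per pair. RIS capture replicate 2 stood apart: 2.69% of its occupied bin pairs on different chromosomes held more than 1 contact, against 20.6% to 23.0% in the other capture libraries and at most 0.869% in Hi-C. The part of this difference in the results below was not tested, and the count of called pairs without this library is given below. The FAT4 region (chr4:125440001-126430000) and the NEDD4L region (chr18:55800001-58000000) overlap no entry of the study's list of captured regions. Both had few contacts inside themselves, 1462 and 1237 per bin, against at least 6918 in each of the other 59 regions, but 479 and 509 per bin with other chromosomes, close to the median of 550 of the listed regions. They fell under the rule and were kept.

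Each region was placed in A or B by the mean first component of growing Hi-C in 120 kb bins, which gave 40 A and 21 B regions. The capture contacts between chromosomes, which were not used for this, put 37 of the 40 A regions in more contact with A than with B regions in growing cells, and 19 of the 21 B regions in more contact with B. Among pairs on different chromosomes, 744 joined A with A, 798 A with B and 202 B with B. These classes were kept for RIS cells. By the RIS score SERGEF, TTLL5, ARSG, SMAD2, TOP1 and the H2AC6 and H4C3 region would lie in A instead of B. The chromosome 2 region without protein-coding genes would lie in B instead of A.

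Contacts with regions of other chromosomes made up a larger part of the signal in every RIS library than in any growing library, and on balanced values A with B was the compartment class that lay higher in RIS without overlap in both readouts. With these numbers of libraries no such difference could reach an exact p under 0.05. In capture, regions of other chromosomes received 0.687% and 0.665% of the signal between different bins of captured regions in growing replicates 1 and 2, against 0.752% and 0.726% in RIS. Both RIS libraries lay above both growing libraries, by a mean of 9.24% (exact permutation test, two-sided, p = 0.33, the smallest p that 2 against 2 libraries allow). In Hi-C the growing libraries had 0.657%, 0.655% and 0.637% and the RIS libraries 0.760% and 0.665%, again without overlap (exact p = 0.1, the smallest for 3 against 2), and without RIS replicate 1 the log2 ratio fell from 0.13 to 0.03. Across the whole genome in Hi-C, 10.5% to 10.9% of the signal lay between chromosomes in growing cells and 13.5% to 13.7% in RIS cells.

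**Figure D1:**
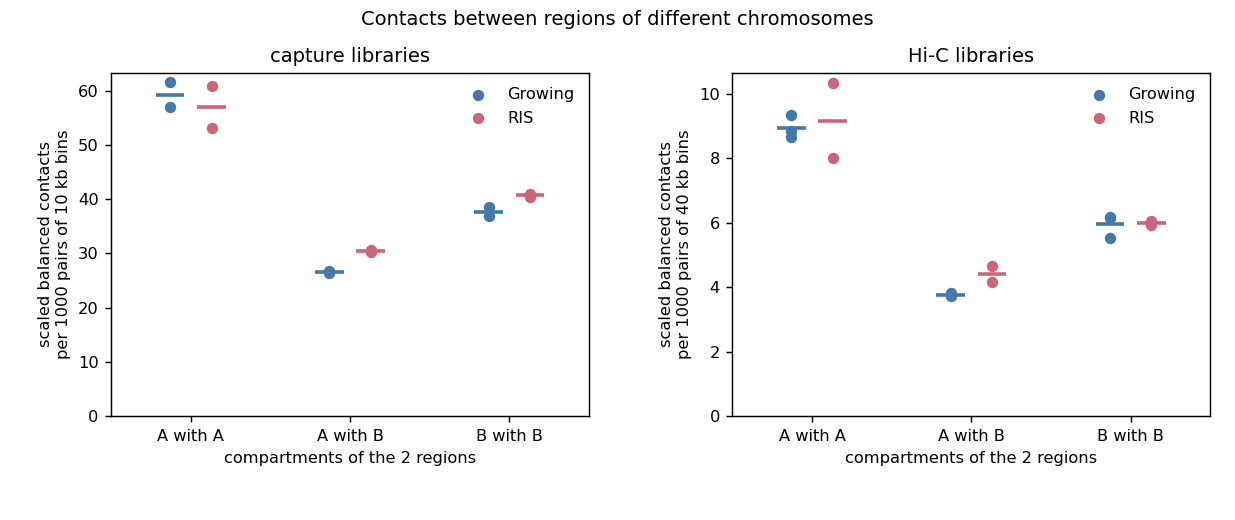
Mean density of contacts between regions of different chromosomes (scaled balanced contacts per 1000 pairs of bins) by the compartments of both regions. Each point is a library and each bar the mean of a group, with growing in blue and RIS in red. In both readouts the RIS libraries lie above the growing libraries for A with B, and the groups overlap for A with A.

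The mean density of a class, in scaled balanced contacts per 1000 pairs of 10 kb bins, is plotted by library for the 3 classes. For A with B, growing capture replicates had 26.4 and 26.6 and RIS replicates 30.5 and 30.3, which is 14.7% more (exact p = 0.33). For A with A the values of 61.5 and 57.0 overlapped with those of 60.8 and 53.1 in RIS (exact p = 0.667). For B with B, 36.8 and 38.5 stood against 41.0 and 40.4, without overlap in capture (exact p = 0.33). In Hi-C, per 1000 pairs of 40 kb bins, A with B went from 3.76, 3.71 and 3.80 to 4.66 and 4.17 (exact p = 0.1), while both other classes overlapped between the groups. On recovered contacts all 3 classes lay higher in RIS without overlap in both readouts, A with A by 11.4%, A with B by 25.2% and B with B by 10.5% in capture, and by 12.6%, 27.9% and 7.43% in Hi-C. The contrast between like and unlike contacts, the log2 of AA times BB over AB squared, was 1.70 and 1.63 before senescence and 1.42 and 1.22 after it in capture. The Hi-C values were 1.95, 2.06 and 1.72 for growing and 1.52 and 1.45 for RIS cells, so in both readouts every RIS library lay below every growing library (exact p = 0.33 and 0.2, the latter because another split of the libraries gave a difference as large). This contrast was computed after the densities had been seen.

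Contacts between regions of the same chromosome lay lower in every RIS library in both readouts. Their part of the capture signal was 2.05% and 2.11% against 1.83% and 1.59%, and the mean fell by 17.8% (exact p = 0.33). In Hi-C 2.10%, 2.19% and 2.32% stood against 1.93% and 1.61% (exact p = 0.1), again without overlap. By the gap between the regions, the 7 pairs up to 2 Mb apart had a mean density of 13867 and 13619 against 9472 and 7946, and the 25 pairs 10 to 50 Mb apart had 1021 and 1025 against 874 and 748. For the 16 pairs 2 to 10 Mb apart the groups nearly met in capture, with 3311 and 3524 against 3309 and 2741, while in Hi-C they stood at 376, 405 and 444 against 329 and 246 (exact p = 0.1), though on recovered contacts they overlapped, with 422, 456 and 496 against 435 and 338 (exact p = 0.3). For the 38 pairs over 50 Mb apart the groups overlapped, with 196 and 187 against 203 and 160. Bin pairs with any contact between regions of the same chromosome, set against recovered contacts, gave a ratio 28.8% higher in RIS. Bin pairs cannot hold a second contact of the same bins, so this ratio depends on depth. It was 0.265% and 0.292% against 0.327% and 0.392%, while contacts within regions numbered 127377618 and 108528582 against 73946082 and 49855845.

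Each pair was then compared between the conditions with limma on log2 values, after loess normalization on abundance. Of 1828 pairs with enough signal in capture, 204 (11.2%) were called at an adjusted p under 0.05, 114 (6.24%) with more contacts in RIS and 90 (4.92%) with fewer. In Hi-C 485 pairs had enough signal and 24 (4.95%) were called, 15 (3.09%) up and 9 (1.86%) down. The balance of rises and falls depended on the scaling and on loess. Without loess it was 121 up and 87 down in capture and 14 and 20 in Hi-C. Scaled to contacts between chromosomes, also without loess, it was 92 and 129 in capture and 12 and 29 in Hi-C. Of the 86 same-chromosome pairs 42 were called in capture, 11 up and 31 down, with a median change of -0.35 on the log2 scale, against 162 of 1742 different-chromosome pairs, 103 up and 59 down, with a median of -0.0043. Among pairs on different chromosomes, A with B had 51 rises and 13 falls among 796 pairs, A with A 37 and 33 among 744, and B with B 15 and 13 among 202. Of the 51 rises of A with B, 17 held the KCNT2 region and 11 the CCNA2 region. Neither region had a called fall with another chromosome. The 51 rises are thus partly a few B regions counted with many partners. The count of called pairs was 44 without growing replicate 1 and 31 without growing replicate 2, fits in which the spread came from the RIS libraries alone, and 199 and 240 without RIS replicates 1 and 2, where it came from the growing libraries. Only 1 pair, KCNT2 with FAT4, was called when the variance trend was left out.

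**Figure D2:**
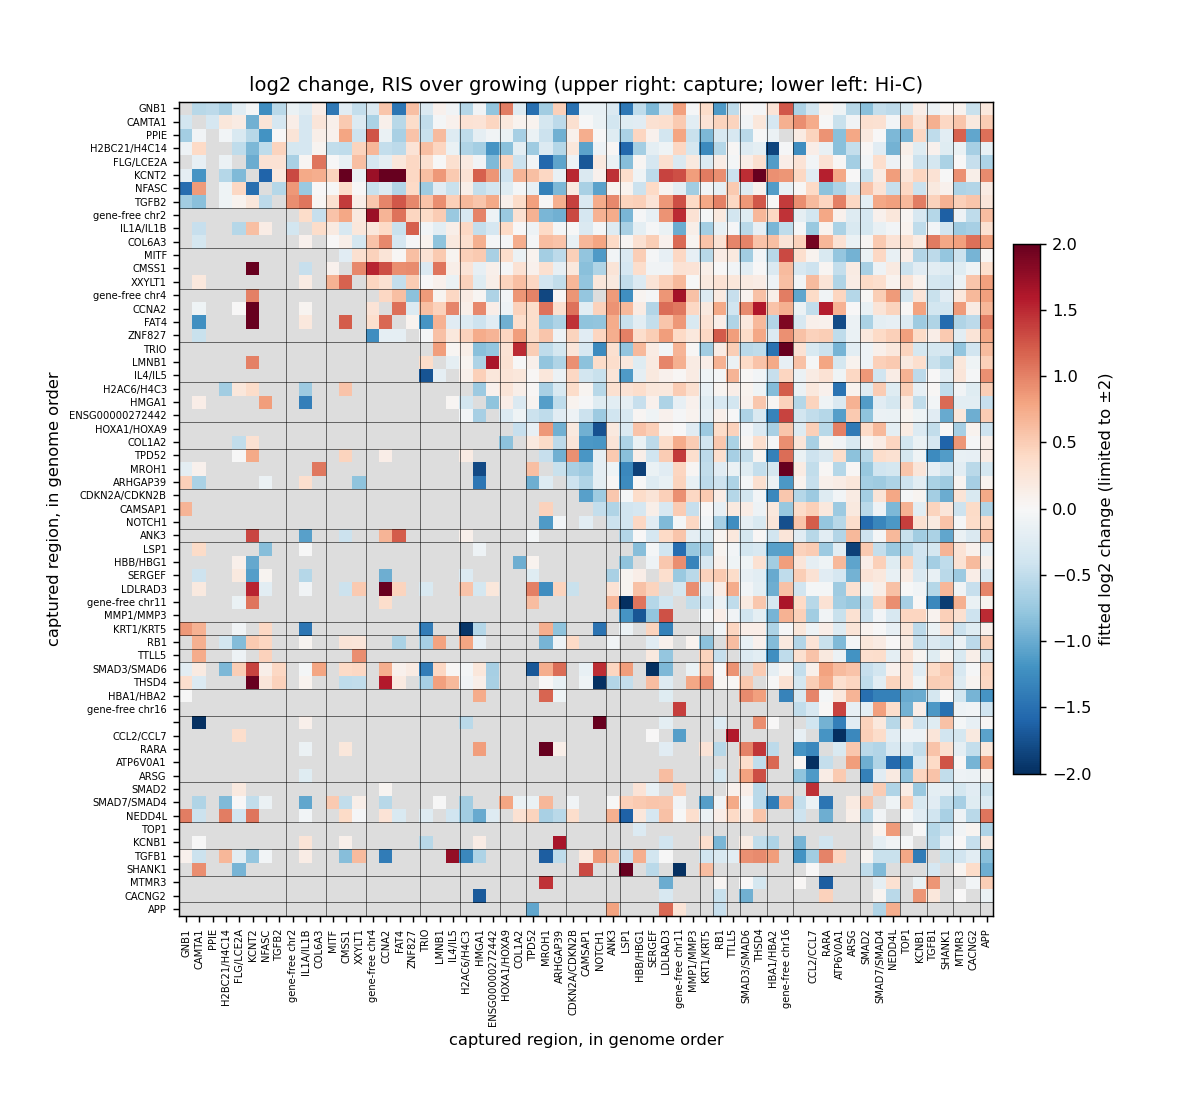
Fitted log2 change of every tested pair of regions, RIS over growing, with regions in genome order on both axes and thin lines between chromosomes. The upper right triangle is capture and the lower left Hi-C, red is higher in RIS, colours stop at 2 in either direction, and grey pairs were not tested. Of the regions, 1 is drawn without a name. The KCNT2 region holds a run of dark red pairs in both triangles.

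The map of the changes shows a few regions that moved with many partners. The KCNT2 region (chr1:195620001-197860000), which also holds the complement factor H genes, ASPM and CRB1, had the most called pairs in capture, 26 of 60, of which 22 rose and 4 fell. All 22 rises were with other chromosomes, 17 of them with A and 5 with B regions, and all 4 falls were with regions of its own chromosome. Its closer description below was chosen after these values had been seen. In Hi-C 8 of its 26 tested pairs were called, 5 up and 3 down. The next regions by calls in capture, each with 60 tested pairs, were FAT4 (14 up, 5 down) and NEDD4L, a ubiquitin ligase gene (9 up, 10 down). A region of chromosome 11 without protein-coding genes (12 up, 6 down), CCNA2 (15 up, 0 down) and TGFB2, the gene of a transforming growth factor (14 up, 1 down), followed. In Hi-C 2 of 13 tested pairs were called for FAT4, 1 of 43 for NEDD4L and 4 of 16 for the chromosome 11 region. There were 3 of 18 for CCNA2 and 0 of 8 for TGFB2. Over all tested pairs 11.2% were called in capture and 4.95% in Hi-C.

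The pair of the KCNT2 and FAT4 regions rose most. Its capture density was 105 and 110 before senescence and 776 and 657 after it, a log2 change of 2.88 ± 0.11 (SE, limma adjusted p = 8.7e-07). The recovered contacts of the pair were 583 and 502 against 2507 and 1315, and in Hi-C, which does not depend on baits, 15, 17 and 10 against 72 and 104 (log2 change 2.89, limma adjusted p = 0.00028). Every RIS library of both readouts thus lay above every growing library. An alternative with low-coverage bins left out could not be computed for this pair. It kept its call in capture under each of the 15 alternatives that could be computed for it.

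The KCNT2 region rose in the same way with the CCNA2 region, which lies on chromosome 4 like FAT4. Growing cells had densities of 33.3 and 30.3 and RIS cells of 169 and 148 (log2 change 2.36 ± 0.12, limma adjusted p = 6.7e-06), and the Hi-C contacts were 21, 17 and 28 against 71 and 94. With THSD4 on chromosome 15 it was 14.3 and 16.8 against 64.9 and 67.6 (2.10 ± 0.15, limma adjusted p = 8.1e-05), with Hi-C contacts of 11, 9 and 12 against 39 and 56. With CMSS1 on chromosome 3, a gene with a role in ribosome assembly, it was 17.7 and 16.4 against 72.7 and 67.8 (2.02 ± 0.15, limma adjusted p = 8.1e-05), with Hi-C contacts of 13, 9 and 6 against 23 and 33. These 3 pairs were called in Hi-C as well, at limma adjusted p of 0.001, 0.0041 and 0.027, and they and the pair with SMAD3 and SMAD6, genes of transforming growth factor signalling (log2 change 1.48 in capture and 1.35 in Hi-C), were the other rises of the region that both readouts called. Other rises, called in capture and not called or not tested in Hi-C, included the regions of RARA, a retinoic acid receptor gene (1.56), of the cell cycle inhibitors CDKN2A and CDKN2B (1.5), of ANK3 (1.46) and of RB1, the retinoblastoma gene (0.93), and the region without protein-coding genes on chromosome 4 (1.72). On its own chromosome the KCNT2 region fell with that of NFASC, a neural cell adhesion gene 6.83 Mb away, from 1397 and 1836 to 440 and 413 (log2 change -1.60 ± 0.14, limma adjusted p = 0.0002, and -1.5 in Hi-C, limma adjusted p = 4.1e-05). It also fell with the epidermal FLG and LCE2A region (-0.99), with CAMTA1 (-0.97) and with the histone genes of chromosome 1 (-0.90), the first 2 of which Hi-C called too.

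**Figure D3:**
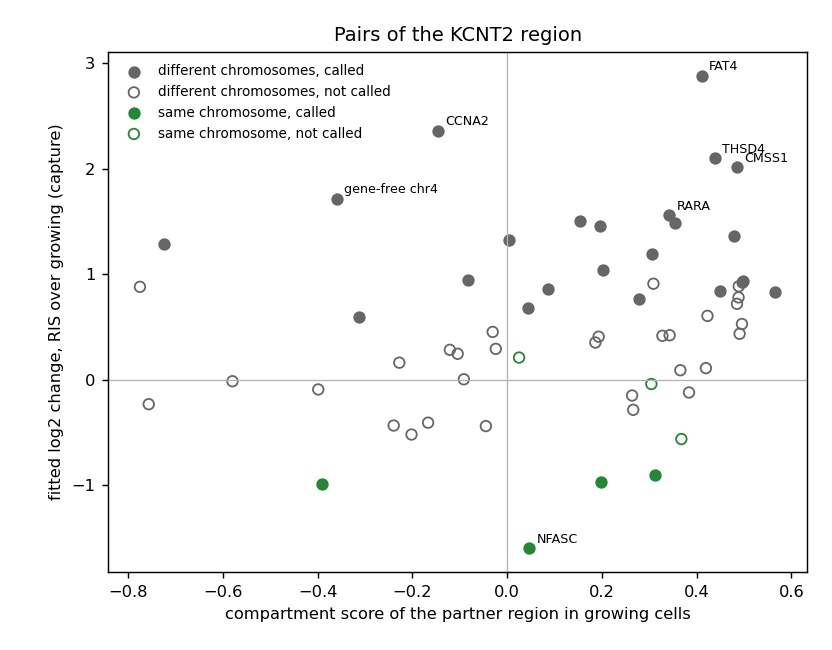
Fitted log2 change of the 60 pairs of the KCNT2 region in capture against the compartment score of the partner in growing cells (positive is A). Filled points were called, and green points are on the same chromosome. Most called rises lie to the right of 0, with A partners, and all called falls are on the same chromosome.

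The plot against the partner's score shows both sides of this change. The median change of the KCNT2 region with other chromosomes was 0.84 for 34 A regions and 0.25 for 19 B regions in capture, and 1.34 for 11 A and 0.36 for 9 B regions in Hi-C. In Hi-C a pair had to reach a minimum mean over both groups, so it could pass through its RIS values. The Hi-C medians of the KCNT2 region thus cover fewer partners and cannot be set directly against its capture medians. Its median density with A over that with B regions was -0.55 and -0.66 on the log2 scale for growing and 0.05 and -0.06 for RIS replicates. Its compartment score from Hi-C went from -0.27 to -0.09, which is closer to 0 and still on the B side. Only 2 regions changed the sign of that ratio of contacts when libraries were averaged, KCNT2 from -0.55 to 0.12 and ANK3 from 0.24 to -0.35. The averaged RIS value of KCNT2 lay above both of its RIS replicates, which differ in sign. The ratio was higher in RIS in 23 of the 61 regions. It rose by 0.67 in KCNT2, and likewise by 0.82 in ARSG, 0.67 in APP and 0.63 in CCNA2, so a rise of this size was not particular to KCNT2. Across the 61 regions the difference between the median change with A and with B went with the change in compartment score only loosely (Pearson r = 0.29, Spearman rho = 0.28, a description, as regions share libraries). The RIS score of chromosome 21, which holds the APP region, came from component 3 and its growing score from component 1, and without that region r was 0.34 and rho 0.32.

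In Hi-C the KCNT2 region was also set against 1 Mb windows of all other chromosomes, per 10000 of its contacts there. Windows were kept at a mean of at least 5 over both groups, so a window low in growing cells could pass through its RIS values alone, and all values here are a description. Of 509 windows kept, both RIS libraries lay above all growing libraries in 231 (45.4%) and below them in 66 (13.0%). The windows named next were chosen for their rise. The window chr4:126000001-127000000, which overlaps the FAT4 region, went from 3.38, 5.32 and 3.61 to 33.7 and 38.4, and chr8:31000001-32000000 from 0.242, 1.71 and 3.19 to 22.6 and 18.4. A window on chromosome 7, chr7:76000001-77000000, went from 2.38, 4.49 and 1.89 to 21.1 and 21.4. The 20 windows with the largest rises lay on 10 chromosomes, and 14 of them had a growing mean under 5.

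**Figure D4:**
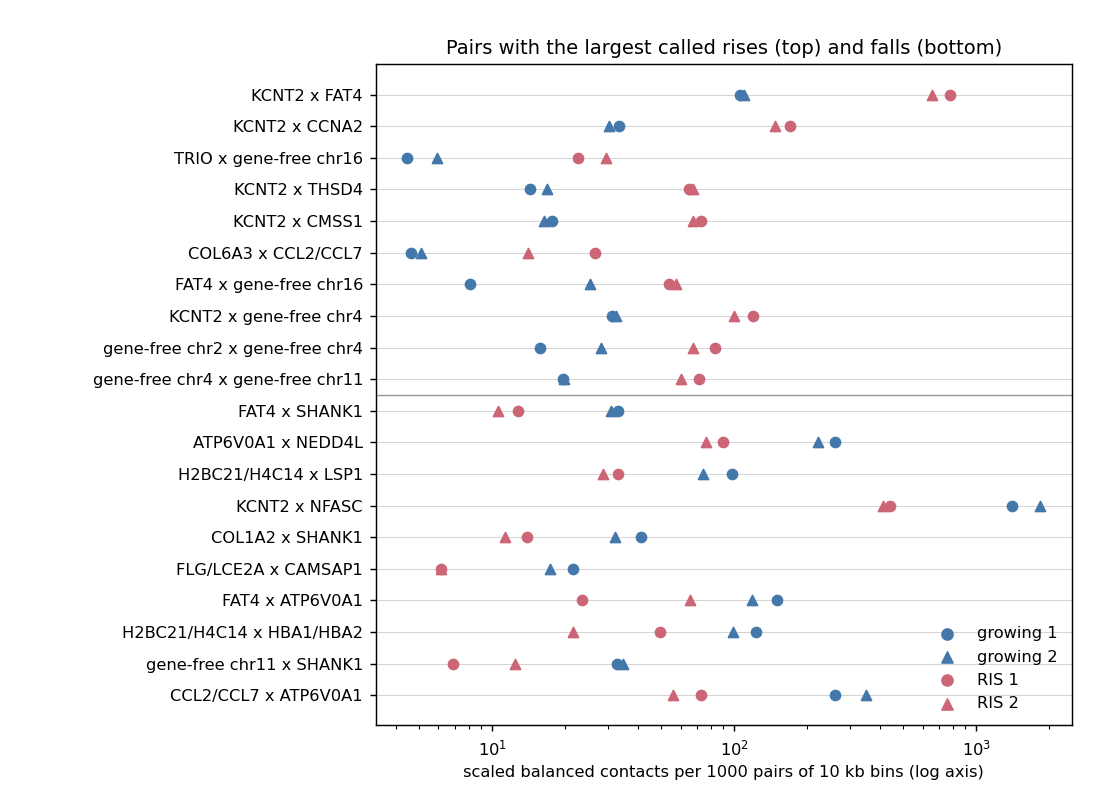
Density of the 10 pairs with the largest called rises (top) and the 10 with the largest called falls (bottom) in capture, on a log axis, with a point per library (circle replicate 1, triangle replicate 2, growing blue, RIS red). The pairs were chosen for their change, and in each the growing and RIS libraries do not overlap. In capture this also held for 970 of all 1744 pairs on different chromosomes and 68 of all 86 on the same chromosome.

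The 20 largest called rises and falls are plotted by library. The regions without protein-coding genes on chromosomes 4 and 11, both in B, rose with each other from 19.5 and 19.8 to 71.8 and 60.4 (log2 change 1.66 ± 0.19, limma adjusted p = 0.00082), and those on chromosomes 2 and 4 from 15.8 and 28.1 to 82.9 and 67.2 (1.71 ± 0.37, limma adjusted p = 0.019). Some of the largest changes rested on few contacts, such as that of TRIO, a guanine nucleotide exchange factor gene, with the region without protein-coding genes on chromosome 16 (23 and 16 against 31 and 26 recovered contacts; log2 change 2.20 ± 0.52). CCNA2 and FAT4, 2.64 Mb apart on chromosome 4, rose from 9487 and 10566 to 16808 and 14023 (1.10 ± 0.09, limma adjusted p = 0.00017), and in Hi-C by 1.15 (limma adjusted p = 4.1e-05). Without loess the change was 0.62 in capture (limma adjusted p = 0.038) and 0.60 in Hi-C (limma adjusted p = 0.045).

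The largest fall was on chromosome 17, between the chemokine genes CCL2, CCL7, CCL8 and CCL11 and the region of ATP6V0A1, a proton pump gene 7.84 Mb away. Its density went from 260 and 350 to 73.2 and 55.9 (log2 change -2.30 ± 0.22, limma adjusted p = 0.00033), with Hi-C contacts of 13, 12 and 33 against 2 and 4 (limma adjusted p = 0.039). The Hi-C pair was not called with voom on recovered contacts (-2.22, adjusted p = 0.093) and on bin pairs (-2.20, adjusted p = 0.13), and growing replicate 3 held more contacts than both other growing libraries together. Between chromosomes, the SHANK1 region of chromosome 19, which was placed in B, fell with the region without protein-coding genes on chromosome 11 from 32.7 and 34.8 to 6.92 and 12.4 (-1.90 ± 0.30, limma adjusted p = 0.0045) and with COL1A2, a collagen gene, from 41.3 and 32.3 to 13.9 and 11.3 (-1.60 ± 0.28, limma adjusted p = 0.0077). ATP6V0A1 fell with NEDD4L from 261 and 221 to 89.5 and 76.5 (-1.55 ± 0.15, limma adjusted p = 0.00033). The histone genes of chromosome 1 fell with the alpha globin genes HBA1 and HBA2 from 122 and 99.2 to 49.2 and 21.6 (-1.83 ± 0.40, limma adjusted p = 0.019) and with LSP1 by 1.56, but neither was called with voom on recovered contacts (adjusted p = 0.38 and 0.69).

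Both histone clusters, the one on chromosome 1 with H2BC21 and H4C14 (chr1:149650001-150280000) and the one on chromosome 6 with H2AC6, H4C3, H1-2 and H4C1 (chr6:25300001-26690000), formed 1 of the 10 pairs of different chromosomes with the highest balanced capture density. Histone genes are known to gather in nuclear bodies where their RNA is made. Their density went from 391 and 373 to 224 and 272 (log2 change -0.60 ± 0.16, limma adjusted p = 0.037) and by voom on recovered contacts -0.63 (adjusted p = 0.0015), but on bin pairs with any contact the pair was not called (-0.29, adjusted p = 0.073). Hi-C had 22, 24 and 22 contacts against 12 and 13 (log2 change -0.70), which was not called (limma adjusted p = 0.19). Of 119 pairs that held a histone cluster, 13 fell and 1 rose in capture, 11.8% called against 11.2% of all pairs, and 11 of the falls were of the chromosome 1 cluster, which had no rise, and 3 of the chromosome 6 cluster, the pair of both counted in each. The globin clusters, HBB and HBG1 on chromosome 11 and HBA1 and HBA2 on chromosome 16, were in little contact (7.94 and 20.8 against 9.72 and 6.99) and were not called (limma adjusted p = 0.46).

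The other pairs with the highest balanced capture density across chromosomes included regions near chromosome ends. ARHGAP39 with the alpha globins had the highest density, 1093 and 1207 against 1378 and 727, and was not called (limma adjusted p = 0.74), with the RIS libraries on either side of the growing libraries. GNB1, a G protein gene, with ARHGAP39 had 784 and 812 against 1227 and 847 (limma adjusted p = 0.064). GNB1 with MROH1 fell from 487 and 506 to 349 and 266 (log2 change -0.69 ± 0.15, limma adjusted p = 0.016), but was at 0.069 with voom on recovered contacts (adjusted p = 0.77). NEDD4L with APP, the amyloid precursor gene, rose from 281 and 270 to 575 and 521 (log2 change 1.08 ± 0.11, limma adjusted p = 0.00046), but was not called in Hi-C (0.72, limma adjusted p = 0.37). Contacts of poorly covered regions weigh more in this ranking. The balanced value per contact was 4.89 for GNB1, 3.00 for MROH1, 2.72 for the alpha globins, 2.04 for ARHGAP39 and 5.95 for NEDD4L. It was 1.15 for APP, and the median of the listed regions was 1.31.

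By gene group, regions of secreted inflammatory factors took part in 290 tested pairs, of which 21 rose and 12 fell (11.4% called, against 11.2% of all pairs). The TGFB2 region held 14 rises and 1 fall. The IL1A and IL1B region had 2 rises and 5 falls, and the chemokine region 1 and 5. That of MMP1 and MMP3 had 3 and 2, and that of IL4 and IL5 1 and 0, pairs within the group counted in each. Regions with the nuclear architecture genes LMNB1 and HMGA1 had 12 rises and 3 falls among 119 pairs (12.6% called), of which LMNB1 had 9 rises and 0 falls and HMGA1 3 of each. Those with epidermal and keratin genes had 1 rise and 6 falls among 119 (5.88%), and those with the matrix genes 6 rises and 1 fall among 119 (5.88%). The globin regions had 2 rises and 12 falls among 119 pairs (11.8%), 8 of the falls in the alpha globin region. Regions of signalling genes had 23 rises and 14 falls among 399 (9.27%), and the HOXA region had 1 of each among 60 (3.33%).

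Among neighbours on the same chromosome, CAMSAP1 and NOTCH1, 0.06 Mb apart on chromosome 9, went from 37189 and 34573 to 22169 and 18156 (log2 change -0.48 ± 0.09, limma adjusted p = 0.011), and MROH1 and ARHGAP39 from 31912 and 31791 to 19397 and 15776 (-0.44 ± 0.09, limma adjusted p = 0.013), though neither was called with voom on recovered contacts (adjusted p = 0.33 and 0.081) or in Hi-C (limma adjusted p = 0.37 and 0.22), and both had a positive change on bin pairs with any contact. Without loess these changes were -0.84 and -0.86 in capture and -0.77 and -0.81 in Hi-C, where both were then called (limma adjusted p = 0.0029 and 0.0021). SMAD2 and the region with SMAD7 and SMAD4, 0.20 Mb apart on chromosome 18, had 13338 and 13618 against 14021 and 12116, so the groups overlapped before loess normalization, and its fitted change of 0.50 (limma adjusted p = 0.0058) turned to -0.048 without it. It was also called with voom on recovered contacts (0.58, adjusted p = 0.013) and in Hi-C (0.55, limma adjusted p = 0.00013). In Hi-C the change was 0.0072 without loess, and -0.12 when it was also scaled to other chromosomes. H2BC21 with FLG and LCE2A, 1.72 Mb apart, fell from 6301 and 6655 to 3341 and 3825 (-0.51 ± 0.13, limma adjusted p = 0.036), but was not called with voom on recovered contacts (-0.30, adjusted p = 0.10) or in Hi-C (-0.12, limma adjusted p = 0.77). Without loess its change was -0.86 in capture and -0.59 in Hi-C, the latter again not called (limma adjusted p = 0.13). LSP1 with the beta globins, 2.42 Mb apart, fell from 2295 and 2956 to 1208 and 1275 (-0.86 ± 0.15, limma adjusted p = 0.0075), also called in Hi-C (-0.80, limma adjusted p = 0.043), though not with voom on Hi-C contacts (-0.70, adjusted p = 0.074).

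For each region, the share of its signal that fell in other captured regions was compared as well. In capture this share was called in 36 of 61 regions (59.0%), 11 higher (18.0%) and 25 lower (41.0%) in RIS, and in Hi-C in 28 of 61 (45.9%), 6 higher (9.84%) and 22 lower (36.1%). Without growing replicate 1 only 7 Hi-C regions were called, 1 higher and 6 lower. With bin pairs with any contact in other regions set against recovered contacts within the region, 30 were higher and 1 lower in capture. This ratio depends on depth, and the part of depth was not tested. With other chromosomes alone the direction turned, to 19 higher and 7 lower in capture and 10 higher and 0 lower in Hi-C, where 19 had an unadjusted p under 0.05. The share was highest for SMAD2, with 19.0% and 19.5% against 17.4% and 15.5%, whose neighbour on chromosome 18 is captured too. The next by group mean in growing cells were NEDD4L (11.5%), MROH1 (10.2%) and ARHGAP39 (8.94%). In RIS cells they were FAT4 (11.5%), NEDD4L (7.78%) and the region with SMAD7 and SMAD4 (6.45%). FAT4 and NEDD4L are not in the study's list, and their few inner contacts are part of what this share is divided by. In Hi-C the growing and RIS means were 2.97% and 2.20% for NEDD4L and 2.56% and 3.83% for FAT4. Those of MROH1 were 12.5% and 8.16% there, and those of ARHGAP39 9.93% and 6.42%. The region without protein-coding genes on chromosome 2 (0.394%) had the lowest mean in growing cells and TPD52 (0.497%) in RIS cells. The largest fall was that of MROH1, from 10.1% and 10.4% to 6.56% and 5.73% (log2 change -0.74 ± 0.09, limma adjusted p = 0.00012), followed by NFASC (-0.73), NOTCH1 (-0.71), CAMSAP1 (-0.70) and ARHGAP39 (-0.67). MROH1 and ARHGAP39 are captured neighbours, as are CAMSAP1 and NOTCH1. The contacts between such neighbours count in the shares of both, so these falls are not separate. The largest rise was that of the chromosome 16 region without protein-coding genes, from 0.413% and 0.482% to 0.694% and 0.752% (0.70 ± 0.10, limma adjusted p = 0.00014), followed by that on chromosome 2 (0.65), COL6A3 (0.47), CDKN2A and CDKN2B (0.46) and APP (0.46).

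**Figure D5:**
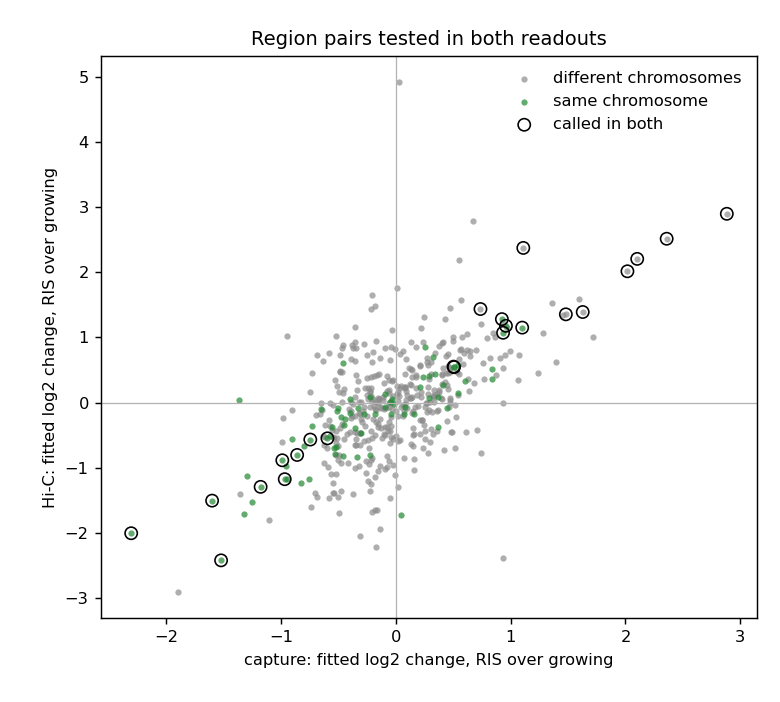
Fitted log2 change of each region pair tested in both readouts, capture on the horizontal and Hi-C on the vertical axis, with same-chromosome pairs in green and pairs called in both circled. All 23 circled pairs lie in the lower left or upper right quadrant.

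Set beside each other, capture and Hi-C correlated in their levels and, for pairs with enough contacts, in their changes, more closely on the same chromosome than between chromosomes. Over 1029 pairs with a value in every library the log2 densities correlated with Pearson r = 0.90 and Spearman rho = 0.81, and over 485 tested pairs the changes with r = 0.58 and rho = 0.53. These are descriptions across pairs, which share regions and libraries. On the same chromosome the levels correlated with r = 0.96 over 81 pairs, and between chromosomes with r = 0.75 over 948 pairs. On the same chromosome the changes correlated with r = 0.84 over 75 pairs, and between chromosomes with r = 0.52 over 410 pairs. Of the 24 pairs called in Hi-C, 23 were called in capture with the same sign, which is 95.8% of the Hi-C calls and 23.2% of the 99 capture calls that Hi-C could test. On the same chromosome this held for 15 of 40 such capture calls (37.5%). Between chromosomes it held for 8 of 59 (13.6%), and 5 of these 8 pairs held the KCNT2 region.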

How the data were processed

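The deposited values are ICE-balanced signal per pair of bins, 10 kb for capture Hi-C and 40 kb for Hi-C, which the authors made with HiC-Pro on hg19 after discarding artefacts and duplicate reads. The deposited bin files hold other values, bin positions and numbers, and were used as an index. Balancing evens out bin totals, so contacts of poorly covered regions weigh more. Whole contacts were recovered with 1 factor per bin (of values under 20 contacts, at least 98.6% in each library were whole within 0.05). Values were summed per pair of regions, and Hi-C bins with at least 50% of their length in a region were used. Libraries were scaled to the mean total within regions, and pairs with a mean scaled sum of at least 5 were tested with limma 3.58.1 (eBayes with trend, R 4.3.3) on the log2 scale (pseudocount 0.5, then loess with span 0.3 and 4 iterations), with Benjamini-Hochberg adjustment at 5% over all pairs. Single values were compared with exact permutation tests, two-sided. Genes came from GENCODE on GRCh37. Regions were named by genes of a list or by their longest protein-coding gene, and pairs and regions were named by fixed ranks. The members, lists and names were chosen with earlier results of these data known. When 200 of 1827 tested pairs were given a change of 2-fold in simulated capture data, limma found 169 of them and called 3 others, and of 200 with 1.5-fold it found 42. In simulated Hi-C data it found 57 of 160 with 2-fold and 12 of 154 with 1.5-fold. All simulated libraries had the same set spread and balancing, so these counts do not give the error rate of the reported calls. Some results, among them the counts of 1 gene group, are not reported here.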

Additional observations from a re-analysis of the deposited data

How the results depend on the processing

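Against 204 capture and 24 Hi-C calls, voom on recovered contacts, which changes both the input and the model, called 431 and 43 in all (163 and 22 of the first calls among them), voom on bin pairs with any contact (an alternative chosen after seeing the data) 426 and 42 (165 and 23 of them), and eBayes without a trend 1 and 3, where 433 and 79 had an unadjusted p under 0.05. Leaving out a library gave 31 to 240 in capture and 11 to 48 in Hi-C, lowest without growing replicate 2 in both and, in Hi-C, highest without growing replicate 1. A duplicates class as a block gave 37 in Hi-C, and scaling to other chromosomes without loess 41. The latter gave 92 up and 129 down in capture, against 114 and 90, and 12 and 29 in Hi-C, against 15 and 9. Leaving out loess alone, with scaling within regions, gave 121 up and 87 down in capture and 14 and 20 in Hi-C. Without the FAT4 and NEDD4L regions 172 were called and without KCNT2 175, both chosen after seeing the data. With a replicate block 172 capture pairs were called, and in Hi-C, with growing replicate 3 left out, 36 against 23 without the block (the latter added after seeing the data); deviations of same-numbered libraries correlated with r = -0.0062 and 0.068, so the numbers were not taken to pair samples. Crossed numbers as a block called 255. Regions of 10 bins or more were the same regions. With gaps not joined 189 of 4760 capture pairs were called (3.97%), and with low-coverage bins left out 286 of 1705 (16.8%), against 11.2% as reported. All 20 of the named largest changes kept their direction under every alternative computed for them. They had been chosen for their size in these same libraries, so their direction could hardly turn. Of the 20, 16 kept their call with voom on recovered contacts and 1 without a variance trend.

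For regions' shares, leaving out a library called 22 to 44 capture and 7 to 33 Hi-C regions, Hi-C with a replicate block and growing replicate 3 left out 16, and Hi-C with other chromosomes only 10.

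The log2 ratio of RIS to growing of the same-chromosome share in capture, -0.28, was -0.17 on recovered contacts, -0.13 with a denominator of pairs over 2 Mb apart or on other chromosomes and 0.37 with bin pairs with any contact, with -0.39 to -0.19 without a library. In Hi-C, -0.32, it was -0.16 with that denominator. Of the share with other chromosomes, 0.13 in both, it was 0.25, 0.28 and 0.42 in capture and 0.25 and 0.32 in Hi-C, in the same order, and without a library 0.10 to 0.15 in capture and 0.033 to 0.23 in Hi-C. For A with A it was 0.16 on recovered contacts and 0.32 on bin pairs in capture, with -0.16 to 0.21 without a library in Hi-C. For A with B in capture it was 0.16 over the mean of all pairs between chromosomes, 0.21 with regions split by the sign of their bins, 0.14 with medians, 0.32 on recovered contacts and 0.48 on bin pairs. In Hi-C it was 0.15, 0.15, 0.35 and 0.36 in this order, the split aside, and 0.15 to 0.31 without a library. For B with B it was 0.074, 0.040 and 0.32 in capture (relative, split, bin pairs) and -0.066, 0.10 and 0.096 in Hi-C (relative, recovered contacts, bin pairs). By distance, recovered contacts gave -0.29 up to 2 Mb and 0.17 over 50 Mb in capture, and -0.39 and -0.25 up to 2 Mb and 2 to 10 Mb in Hi-C. Leaving out a library gave -0.79 to -0.54, -0.32 to -0.047, -0.45 to -0.23 and -0.26 to 0.082 for the classes from near to far in capture, and -0.80 to -0.47, -0.73 to -0.31, -0.52 to -0.24 and -0.21 to 0.066 in Hi-C. In these shares and densities bin pairs with any contact were set against recovered contacts, so their ratios depend on depth.

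Single pairs that turned were GNB1 with MROH1 (-0.69 as reported, 0.069 with voom on contacts, 0.053 on bin pairs), CAMSAP1 with NOTCH1 (0.39 on bin pairs), MROH1 with ARHGAP39 (0.13 on bin pairs), SMAD2 with SMAD7 and SMAD4 (-0.048 without loess and -0.17 scaled to other chromosomes in capture, -0.12 so scaled and -0.0051 with a minimum of 50 in Hi-C), SMAD3 and SMAD6 with THSD4 (0.51 in capture and 0.54 in Hi-C at first, -0.067 so scaled in capture, -0.015 without loess and -0.14 so scaled in Hi-C) and the chromosome 4 region without protein-coding genes with CCNA2 (0.41 at first, -0.11 so scaled). The cause of these changes was not tested. The fits scaled to other chromosomes were also without loess. With few contacts per pair, Hi-C could test 485 of 1830 pairs only.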
